A study of Mus musculus with 96 samples.

Results

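The genes described here are 45 interferon-stimulated genes and interferon-inducible GTPases of the mouse, read in the livers of F1 hybrids so that the copy inherited from each parental strain could be counted apart. They were chosen with earlier results of these data known and were looked up by gene symbol. Of the 45, 43 were found among the 38924 genes of the deposited tables. Gbp5 and Gbp6 were not matched by symbol, so their expression is not analysed here. Gbp5 enters only the promoter search below. Of the 43, 40 had enough reads for a test of total expression, and 26 reached the mean of 20 counts per mouse set for a test of the 2 alleles.

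The 48 mice were male F1 offspring of NOD/ShiLtJ, used as a model of autoimmune diabetes, and PWK/PhJ, bred from wild-caught mice, mated in both directions. Every animal therefore carried 1 NOD and 1 PWK copy of each autosomal gene. The strain written first is the dam, and it supplies the single X chromosome of these males: a median of 4.49% of X-linked counts, and at most 6.19%, were assigned to the strain written second. Both crosses, NODxPWK F1 and PWKxNOD F1, received a normal diet with 0.009 g/kg of cholecalciferol (vitamin D3) or a high diet with 0.050 g/kg, and were studied at a younger and an older age. This gave 8 groups of 6 mice, with 24 mice on each side of every factor. The age labels read 8 for the younger mice and 24 or 25 for the older ones, with no unit, whereas the protocol gives 15 and 24 weeks. The groups are therefore called younger and older. All 7 mice labelled 25 were older mice on the normal diet, 5 of them NODxPWK and 2 PWKxNOD. Runs without these mice leave the older normal-diet NODxPWK group with 1 mouse, which is then assumed to vary like the other groups. The labels name no infection and no interferon treatment.

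Whole liver was sequenced after poly-A selection, as unstranded single-end reads of 68 bases, and the totals ran from 2030000 to 7480000 counts per mouse with a median of 5270000. The 5 hepatocyte markers summed to between 53890 and 113600 counts per 1000000 counts of the library (CPM), and Kupffer cell markers to between 104 and 214 CPM. B cell markers ran from 10.9 to 134.3 CPM. Sums stayed at or below 10.1 CPM for T and NK cells, 11.1 CPM for plasmacytoid dendritic cells and 2.16 CPM for neutrophils. Markers of exocrine pancreas reached at least 60 CPM in 10 mice, with a maximum of 1835 CPM among the younger PWKxNOD mice on the high diet. The highest dendritic cell sum was in that same group, whose median for those markers was 1.6 CPM. Libraries also differed in base composition. The mean log2 level of the top GC quintile of genes minus that of the bottom quintile, called the GC score below, ran from -0.92 to 0.40 over the mice. Its group medians lay between -0.27 and 0.15, the highest being that of older PWKxNOD mice on the normal diet.

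Interferons act through cell-surface receptors that activate JAK kinases and STAT proteins. Type I and III interferons act through a complex with STAT2 and IRF9 that binds the interferon-stimulated response element (ISRE), while interferon gamma acts through a second element, the gamma-activated site (GAS). The induced genes include RNA sensors, antiviral effectors, the ISG15 modifier, the immunoproteasome and peptide transporter of antigen presentation, and 2 families of GTPases, the immunity-related GTPases (IRG) and the guanylate-binding proteins (GBP), which act on vacuoles that hold intracellular parasites and bacteria. Liver cells express part of this programme without infection.

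The promoters of the members held matches to both kinds of element. RefSeq promoter windows of GRCm38.p6, from 250 bases before to 50 bases after each start, were found for 34 of the 45 members. They hold the sequence of the reference strain, and the NOD and PWK promoters were not read here. The ISRE core, searched as GAAANNGAA on both strands, was present in 22 of these 34 (64.7%), against 9.76% of the 27025 genes with a window and 8.56% of the 32851 windows. The GAS motif, searched as TTCNNNGAA, which reads the same on both strands, was present in 12 of the 34 (35.3%), against 9.55% of genes and 8.3% of windows. A match is a string of letters and not a measured binding site. The 8 stretches below are shown because their genes carry results of the sections that follow, each 5′ to 3′ along the gene's own strand with the matches in capitals. The neighbours Irgm2 (chr11:58214890-58214933, plus strand) and Igtp (chr11:58199499-58199542, plus strand) have a GAS match just before an ISRE match, and are set together for comparison. Irgm1 (chr11:48871424-48871462, minus strand) has 2 overlapping ISRE matches, and Gbp7 (chr3:142530218-142530304, plus strand) has 2 GAS matches and 1 ISRE match on the opposite strand. Stat2 (chr10:128270265-128270297, plus strand) and Rsad2 (chr12:26456551-26456583, minus strand) have 1 ISRE match each on the opposite strand. Isg15 (chr4:156200864-156200908, minus strand) has 3 ISRE matches, and Bst2 (chr8:71537576-71537620, minus strand) has 2 beside 1 GAS match.
Irgm2: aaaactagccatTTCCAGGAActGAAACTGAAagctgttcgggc
Igtp: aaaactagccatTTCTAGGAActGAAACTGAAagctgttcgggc
Irgm1: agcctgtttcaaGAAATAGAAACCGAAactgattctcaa
Gbp7: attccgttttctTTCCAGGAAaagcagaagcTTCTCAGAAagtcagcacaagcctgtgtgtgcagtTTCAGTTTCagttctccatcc
Stat2: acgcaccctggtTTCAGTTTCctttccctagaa
Rsad2: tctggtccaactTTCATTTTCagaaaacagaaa
Isg15: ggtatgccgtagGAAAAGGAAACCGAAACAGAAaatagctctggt
Bst2: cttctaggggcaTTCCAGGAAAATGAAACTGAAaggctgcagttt

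The first question was how evenly the 2 alleles of each gene were expressed. The PWK share is the percentage of a gene's counts assigned to the PWK copy, so 50% is balance. Of the 26 members tested, 13 had unequal alleles in edgeR's quasi-likelihood test at a Benjamini-Hochberg adjusted p of 0.05, and 43.6% of the 9362 autosomal genes tested did. The members were thus called about as often as genes at large. The PWK copy was higher in 8 of them (20.9% of all genes) and the NOD copy in 5 (22.8% of all genes). The imbalance was large in some members. With counts pooled over mice, 4 of the 26 (Xaf1, Mx2, Ifi27 and Iigp1) had a share below 25% or above 75%. The same held for 4.76% of all genes. The PWK share over all autosomal counts was 46 to 48.6% per mouse, with a median of 47.1%.

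**Figure D1:**
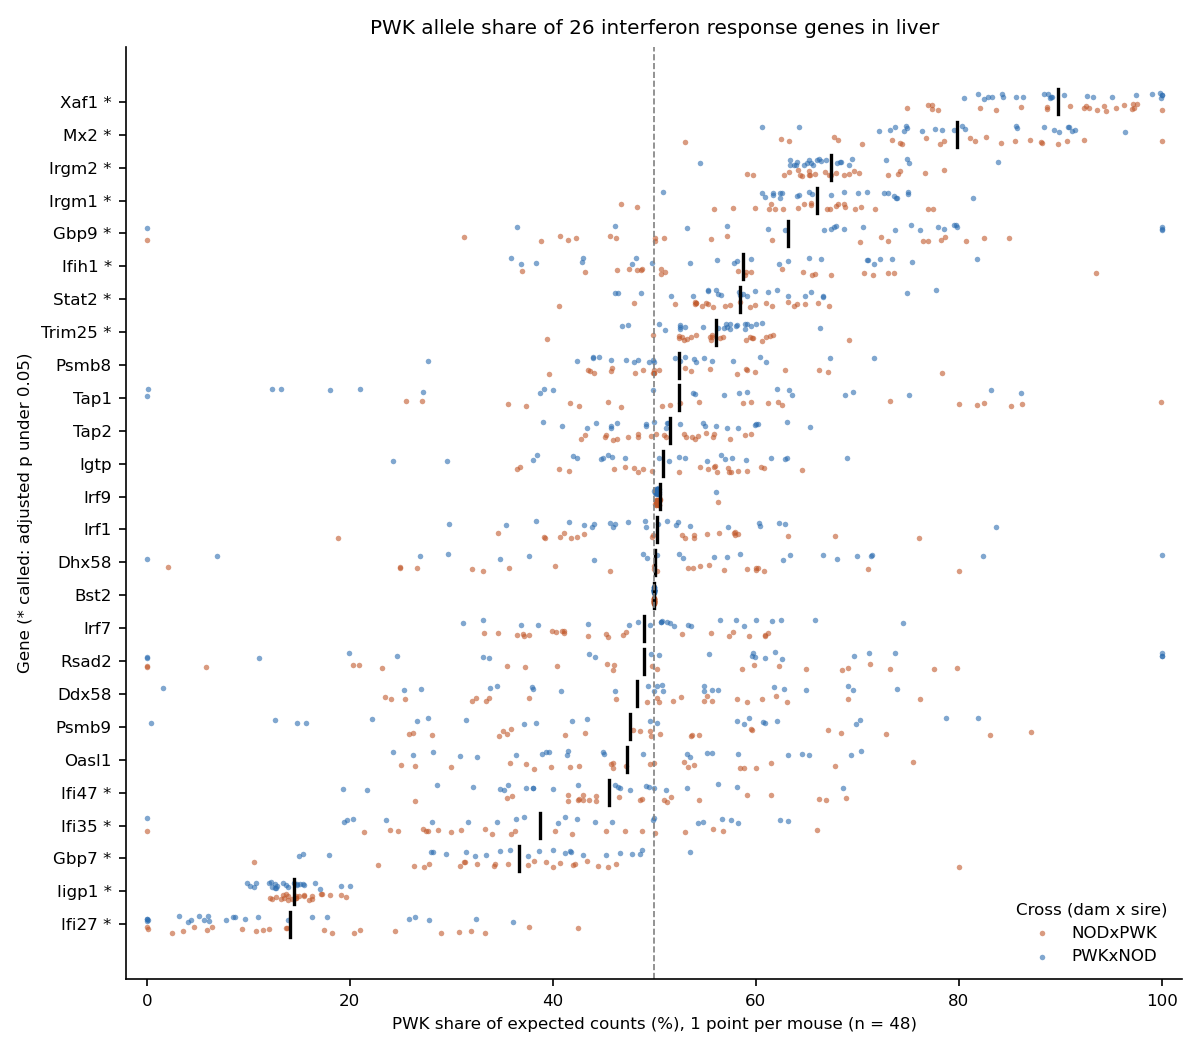
PWK share of expected counts (percent, x axis) for the members tested for allele balance, with 1 point per mouse coloured by cross, and a bar at the mean over 48 mice. Xaf1 and Mx2 lie above 50% in all 48 mice, Iigp1 and Ifi27 lie below 50% in all 48, and Bst2 sits at 50% in every mouse.

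Among the IRG GTPases, the alleles of related genes leaned in opposite directions. Iigp1 (Irga6, chromosome 18, 60376027 to 60392634) is the most studied IRG effector, which loads onto the membranes of parasite vacuoles. Most of the Iigp1 counts were assigned to the NOD copy. The PWK share of Iigp1 ran from 9.91% to 20.04% with a median of 14.4% over the 48 mice. Every mouse lay far below 50%, and the means of the 8 groups kept within 12.8 to 16.2%. The log2 ratio of PWK over NOD was -2.57 ± 0.04 (SE, adjusted p = 1.1e-39, edgeR's quasi-likelihood test), a 5.94-fold excess of NOD counts. Iigp1 was the member with the most counts (307 ± 55.8 CPM, SD over 48 mice). Its total was not a whole number in any of these mice, since reads were divided with other genes (described below). How completely the reads of each copy were assigned was not tested.

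Irgm1 and Irgm2 belong to the regulatory IRG proteins, which sit on host membranes and keep the effectors from acting on them. Irgm2 (chromosome 11, 58199618 to 58222782) had a PWK share of 54.6 to 83.9% with a median of 66.3%, above 50% in 48 of 48 mice (log2 ratio 1.06 ± 0.05, adjusted p = 6.4e-22). Irgm1 (chromosome 11, 48861968 to 48871683) had a share of 46.7 to 81.4% with a median of 65.5%, above 50% in 46 of 48 mice (log2 ratio 0.97 ± 0.07, adjusted p = 1.7e-16). Both regulators thus leaned to PWK while the effector Iigp1 leaned to NOD. Igtp (Irgm3, chromosome 11, 58199556 to 58207591), the third regulatory member, had a mean share of 50.9 ± 9.36% and was not called, with 27 mice above 50% and 21 below. Igtp and Irgm2 overlap by 162 bases of annotated exon, so some reads fit either gene, and the share of their summed counts was 62.1 ± 5.42%, above 50% in 47 of 48 mice. Ifi47 (Irgd, chromosome 11, 49076587 to 49096974) leaned weakly to NOD, with a share of 19.4 to 68.9%, a median of 45.2% and 33 of 48 mice below 50% (log2 ratio -0.27 ± 0.09, adjusted p = 0.016). That call was lost without replicate 2, 3 or 6, without the mice labelled 25 and without the 6 mice of the barcode with the shallowest libraries (adjusted p 0.064 to 0.1).

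The GBP family, larger GTPases that assemble on pathogen membranes, also held members of both directions. Gbp7 (chromosome 3, 142530342 to 142550149) leaned to NOD, with a PWK share of 10.5 to 80.01% and a median of 37.5%, below 50% in 46 of 48 mice (log2 ratio -0.82 ± 0.10, adjusted p = 5.4e-09). Gbp9 (chromosome 5, 105077630 to 105139539) leaned to PWK with a median of 67.8%, yet its mice ran from 0 to 100%, 35 above and 11 below 50% (log2 ratio 0.92 ± 0.22, adjusted p = 4.3e-04). Its mean depth was 22.4 counts per mouse. Without the mice labelled 25 its log2 ratio was -0.05 (adjusted p = 0.8). The older normal-diet NODxPWK group then held 1 mouse, whose Gbp9 reads numbered 11.3 for NOD and near 0 for PWK, so the Gbp9 imbalance rests on which mice were counted. Gbp9 also overlaps Gbp4 and Gbp8 by 60 bases of exon each.

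Among the members tested the strongest lean to PWK was that of Xaf1 (chromosome 11, 72301629 to 72313733), which encodes an antagonist of the apoptosis inhibitor XIAP. Its PWK share ran from 74.9 to 100% with a median of 89.8%, and 4 mice were at 100% to within 0.1 points. All 48 mice lay above 50%, with group means from 86.9 to 92.0%, and the log2 ratio was 3.24 ± 0.23 (adjusted p = 2.6e-16) at 7.63 ± 2.44 CPM. Mx2 (chromosome 16, 97535308 to 97560900), a gene of the antiviral dynamin-like Mx GTPases, had a share of 53.1 to 100% with a median of 79.9%, again above 50% in 48 of 48 mice (log2 ratio 2.10 ± 0.16, adjusted p = 5.5e-15). The reference annotation lists Mx2 as a polymorphic pseudogene, and whether the NOD or the PWK copy is intact was not read here. Its neighbour Mx1 was read at 7.79 counts per mouse, and 31 mice were at 100% PWK to within 0.1 points. Because some reads fit both Mx genes, the sum is the firmer value: the total of Mx1 and Mx2 was a whole number in every mouse, and 80.7% of it was PWK.

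Ifi27 (chromosome 12, 103434211 to 103440239) encodes a small hydrophobic protein of organelle membranes and had the largest log2 lean to NOD of the members tested. Its PWK share was 0 to 42.5% with a median of 10.9%, and no mouse reached 50% (log2 ratio -2.86 ± 0.23, adjusted p = 4.7e-14). In 5 mice it was below 0.1%. Ifi35 (chromosome 11, 101448407 to 101458698), a leucine-zipper protein induced by interferon, leaned the same way with a median share of 38.7%, 35 mice below and 12 above 50% (log2 ratio -0.69 ± 0.16, adjusted p = 5.2e-04).

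Smaller imbalances, all toward PWK, were called in the RNA sensing genes Ifih1 and Trim25 and in the transcription factor gene Stat2. Ifih1 (MDA5, a sensor of long double-stranded RNA, chromosome 2, 62595798 to 62646255) had a share of 35.9 to 93.5% with a median of 59.0%, above 50% in 33 of 48 mice (log2 ratio 0.54 ± 0.12, adjusted p = 1.4e-04). Trim25 (chromosome 11, 88999376 to 89020293), a ubiquitin ligase linked to the RNA sensor RIG-I, ran from 39.5 to 69.2% with a median of 56.6%, above 50% in 44 mice (log2 ratio 0.36 ± 0.04, adjusted p = 1.4e-09). Stat2 (chromosome 10, 128270559 to 128292849), a subunit of the ISRE-binding complex, ran from 40.6 to 77.7% with a median of 58.4%, above 50% in 43 mice (log2 ratio 0.49 ± 0.06, adjusted p = 2.8e-09). In each of these 3 genes single mice lay on both sides of 50%.

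The other 13 members tested were not called. The antigen processing genes of the major histocompatibility region on chromosome 17 were among them, with mean PWK shares of 52.5% for Psmb8, 47.6 ± 19.7% for Psmb9, 52.5 ± 23.3% for Tap1 and 51.6% for Tap2, the first pair being immunoproteasome subunits and the second the peptide transporter. So were the factors Irf1 (50.2%) and Irf7 (49%), the RNA sensors Ddx58 (RIG-I, 48.3 ± 15.5%) and Dhx58 (LGP2, 50.1 ± 19.9%), Oasl1 (47.3%) and the radical SAM enzyme Rsad2 (viperin, 49 ± 26.1%). A mean near 50% hid wide scatter in several of these, since single mice ran from 0 to 100% in Rsad2 and from 0.0006 to 100% in Tap1. The SD of the Tap1 share over mice was 3.64 times the binomial spread expected from its total counts. The ratio was 3.31 for Ddx58, 2.83 for Ifih1, and 1.33 for Xaf1 and Psmb8. That spread treats every count as telling the strains apart. Reads that fit both strains would change the true counting error by an unknown amount, so these ratios do not measure variation between mice.

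A share of exactly 50% is not evidence of balance. The share of Bst2 (tetherin, which holds budding virus at the cell surface) was 50% in 48 of 48 mice, within 0.1 points. The same held for 471 of the 9362 genes (5.03%), and Ifi44 was at 50% in every mouse with reads. An even split of reads that do not tell the strains apart would give this value, so no balance was measured for Bst2. Irf9, the DNA-binding partner of STAT2, is close to this state, with shares that ran only from 50 to 56.3%. limma on the log2 ratios called it (log2 ratio 0.03, adjusted p = 0.017), and among the members limma called it was the only one that edgeR's test did not call.

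Low counts limited 17 of the 43 matched members, which stayed below a mean of 20 counts per mouse and were not tested for allele balance: Isg15, Usp18, Ifit1, Ifit2, Ifit3, Ifit3b, Oas1a, Oas1g, Oas2, Oasl2, Mx1, Gbp2, Gbp3, Gbp4, Tgtp1, Tgtp2 and Ifi44. Oas1a (0.896 CPM), Oas1g (0.608 CPM) and Tgtp1 (0.977 CPM) were below 1 CPM, and Oas1a, Oas1g and Ifi44 were also too low for the test of total expression. The shares below pool all counts of a gene over mice and are given as descriptions. Isg15, the ubiquitin-like modifier, stood at 19.8% PWK, with 43 of 48 mice below 50% and 16 mice below 0.1%. Usp18, the protease that removes ISG15, stood at 45.2%. PWK shares were 72.5% for Gbp3, 71.3% for Gbp4, 66.3% for Oasl2 and 45.5% for Gbp2. The RNA-binding IFIT proteins Ifit1 and Ifit2 were at 48.2% and 41%, and the oligoadenylate synthetase Oas2 at 52.0%.

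Near-identical copies share reads, and the method that made these counts divides such reads between genes. Of the windows of 68 bases in their transcripts, 78.3% of those of Tgtp1 and 82.7% of those of Tgtp2 occur in another gene, as do 49.9% for Oas1a, 39.1% for Oas1g, 43.9% for Ifit3 and 38.1% for Ifit3b. Only the sums of such pairs can be read: 69.9% PWK for Tgtp1 with Tgtp2, 45.6% for Ifit3 with Ifit3b and 49.7% for Oas1a with Oas1g. The Tgtp sum was itself not whole in 28 of 48 mice. The division is visible as totals that are not whole numbers, which made up 29% of all totals. Iigp1, Irgm2, Igtp and Xaf1 had such totals in all 48 mice, so their counts include reads divided with other genes. The libraries do not keep strand, so reads in exons that overlap another gene cannot be told apart: 637 bases between Gbp7 and Gm43802, 533 between Tap2 and Gm15821, 498 between Psmb8 and Gm20496, 212 between Psmb9 and Tap1, 141 between Dhx58 and its antisense gene Dhx58os, 111 between Ifi47 and Olfr56, and 290 between Ifi35 and Gm11626.

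No difference between the maternal and the paternal copy was detected in the members. The count was 0 of 26 (edgeR, adjusted p at least 0.95), against 0.267% of all genes. At an unadjusted p of 0.05 the count was also 0, against 5.31% of all genes, and limma called 0. For the allele ratio by diet the count was 0 of 26 as well, against 0.0214% of genes, with 0 at an unadjusted p of 0.05 against 4.66% of genes. Gbp9 had the smallest unadjusted p for diet, 0.06, and limma called 0. For age, 0 of 26 were called against 0.705% of genes, limma again called 0, and 3 members had an unadjusted p under 0.05, against 6.29% of genes. The lowest was Gbp7, whose median PWK share was 31.4% in older and 41.5% in younger mice (10.5 to 46.7% and 22.8 to 80.01%). The ranges overlapped (difference in log2 ratio -0.66 ± 0.20, adjusted p = 0.205). Without the mice labelled 25 the difference was -1.11 (adjusted p = 0.026), but the older normal-diet NODxPWK group was then 1 mouse, whose Gbp7 share of 10.5% was the lowest of all 48.

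Total expression, the sum of both alleles, gave the level of each member. Per kilobase of transcript, Bst2 was highest at 81.6 CPM per kb, followed by Iigp1 at 52.7, Trim25 at 19.1, Irgm2 at 14.7, Igtp at 12.6, Ifi27 at 9.19, Tap2 at 8.97 and Stat2 at 8.33. The IRG GTPases Iigp1, Irgm2 and Igtp were thus among the members with the highest level per kilobase, while other immunity GTPases were low. The 5 matched GBP genes ran from 0.36 (Gbp4) to 1.78 CPM per kb (Gbp7), and Tgtp1 and Tgtp2 stood at 0.305 and 0.888 CPM per kb. Not scaled for length, the level was 3.44 CPM for Ifit1, 2.18 CPM for Isg15 and 2.23 CPM for Usp18, whereas Mx1 and Mx2 together had 19.5 CPM, most of it from Mx2.

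Age gave more called members (6) than cross (3) or diet (0). Of 40 members tested, 6 (15.0%) differed between the 24 older and 24 younger mice (edgeR's quasi-likelihood test, adjusted over 11979 genes), as did 12% of all genes, 6.42% higher and 5.59% lower. DESeq2 also called 6 members. Of the 6, 3 rose and 3 fell, and the median member changed by -0.04 on the log2 scale. The called members did not share a role: 2 effectors and 1 factor rose, and 2 factors and 1 effector fell.

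**Figure D2:**
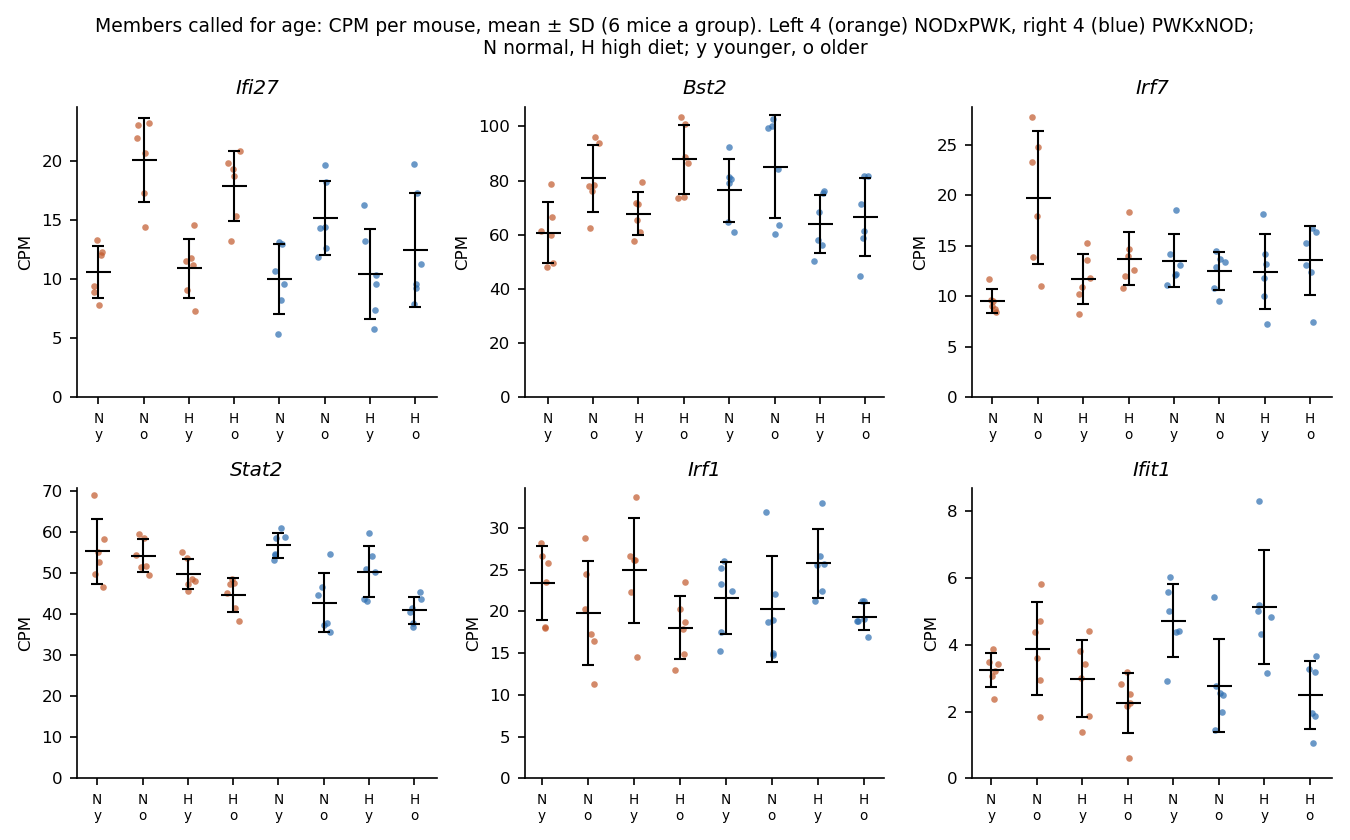
CPM of the 6 members called for age (y axis), with 1 point per mouse and the mean and SD of 6 mice for each of the 8 groups. Ifi27, Bst2 and Irf7 are higher in older mice and Stat2, Irf1 and Ifit1 are lower, with overlapping ranges in each.

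Ifi27 rose most with age, with 5.34, 10.5 and 16.3 CPM as the lowest, median and highest of the younger mice and 7.90, 17.3 and 23.3 CPM in the older ones. The groups overlapped, and the log2 change was 0.63 ± 0.10 (adjusted p = 1.5e-05). Bst2 went from 48.2, 65.9 and 92.4 CPM to 44.7, 79.9 and 103.6 CPM (log2 change 0.27 ± 0.06, adjusted p = 0.00354). Bst2 followed the GC score of the library (described below), and with that score as a covariate its change was 0.24 (adjusted p = 3.8e-05). Irf7, the factor that amplifies type I interferon production, went from 7.24, 11.8 and 18.5 CPM to 7.48, 13.8 and 27.7 CPM (0.35 ± 0.09, adjusted p = 0.00773). Without the mice labelled 25 the change was 0.14 (adjusted p = 0.6). The 1 mouse then left in the older normal-diet NODxPWK group had the lowest Irf7 of its 6 (11 CPM), so the label and this mouse cannot be told apart.

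Stat2 fell with age, from 43.2, 53.4 and 69.1 CPM to 35.5, 45.2 and 59.6 CPM (log2 change -0.21 ± 0.04, adjusted p = 3.42e-04). Irf1, a factor induced by interferon gamma, fell from 14.5, 25.4 and 33.7 CPM to 11.3, 18.9 and 32 CPM (-0.28 ± 0.09, adjusted p = 0.0277), and without the mice labelled 25 the change was -0.14 (adjusted p = 0.59). The mouse left alone by that run had the highest Irf1 of its 6 (28.8 CPM). Ifit1, which binds foreign RNA ends, fell from 1.40, 3.84 and 8.31 CPM to 0.598, 2.66 and 5.81 CPM (-0.45 ± 0.15, adjusted p = 0.0438) and lost its call in 8 of the 16 alternatives that tested it. Ifi27, Bst2 and Stat2 kept theirs in all 17. In bulk liver, fewer cells of a type and less RNA per cell cannot be told apart. Summed marker levels in younger and older mice had medians of 146.7 and 152.4 CPM for Kupffer cells, 3.81 and 4.75 CPM for T and NK cells, and 62.2 and 36.2 CPM for B cells. Bile duct markers had medians of 31.97 and 47.2 CPM, and their group median was higher in older mice in each cross on each diet, by most in PWKxNOD mice on the high diet (28.2 and 70.3 CPM). The medians were 100.2 and 122.3 CPM for stellate cells. The part of these cell types in the age differences was not tested.

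The direction of the cross changed 3 members, all higher in PWKxNOD mice (7.5% of the members, against 10.7% of all genes). DESeq2 called 3 as well. Besides the dam, the crosses differ in the X, the Y and the mitochondrial genome the males carry. Igtp had 16, 22.3 and 36.1 CPM as lowest, median and highest in NODxPWK and 17.5, 26.8 and 48.0 CPM in PWKxNOD (log2 difference 0.32 ± 0.08, adjusted p = 0.00679). Both immunoproteasome subunits were also higher: Psmb9 stood at 3.03, 5.35 and 9.76 CPM against 2.61, 7.28 and 11.1 CPM (0.41 ± 0.12, adjusted p = 0.0125), and Psmb8 at 7.29, 11.7 and 14.6 CPM against 7.90, 13.1 and 19.6 CPM (0.27 ± 0.08, adjusted p = 0.0169). The ranges overlapped in all 3. Igtp kept its call in all 17 alternatives. Without replicate 5, or without the mice labelled 25, it was the only member called. With the GC score as a covariate the count was 5, adding Tap2 (adjusted p = 0.0053) and Ifi35 (adjusted p = 0.021). Both genes followed that score (described below), and the share of all genes called with the covariate was not counted.

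**Figure D3:**
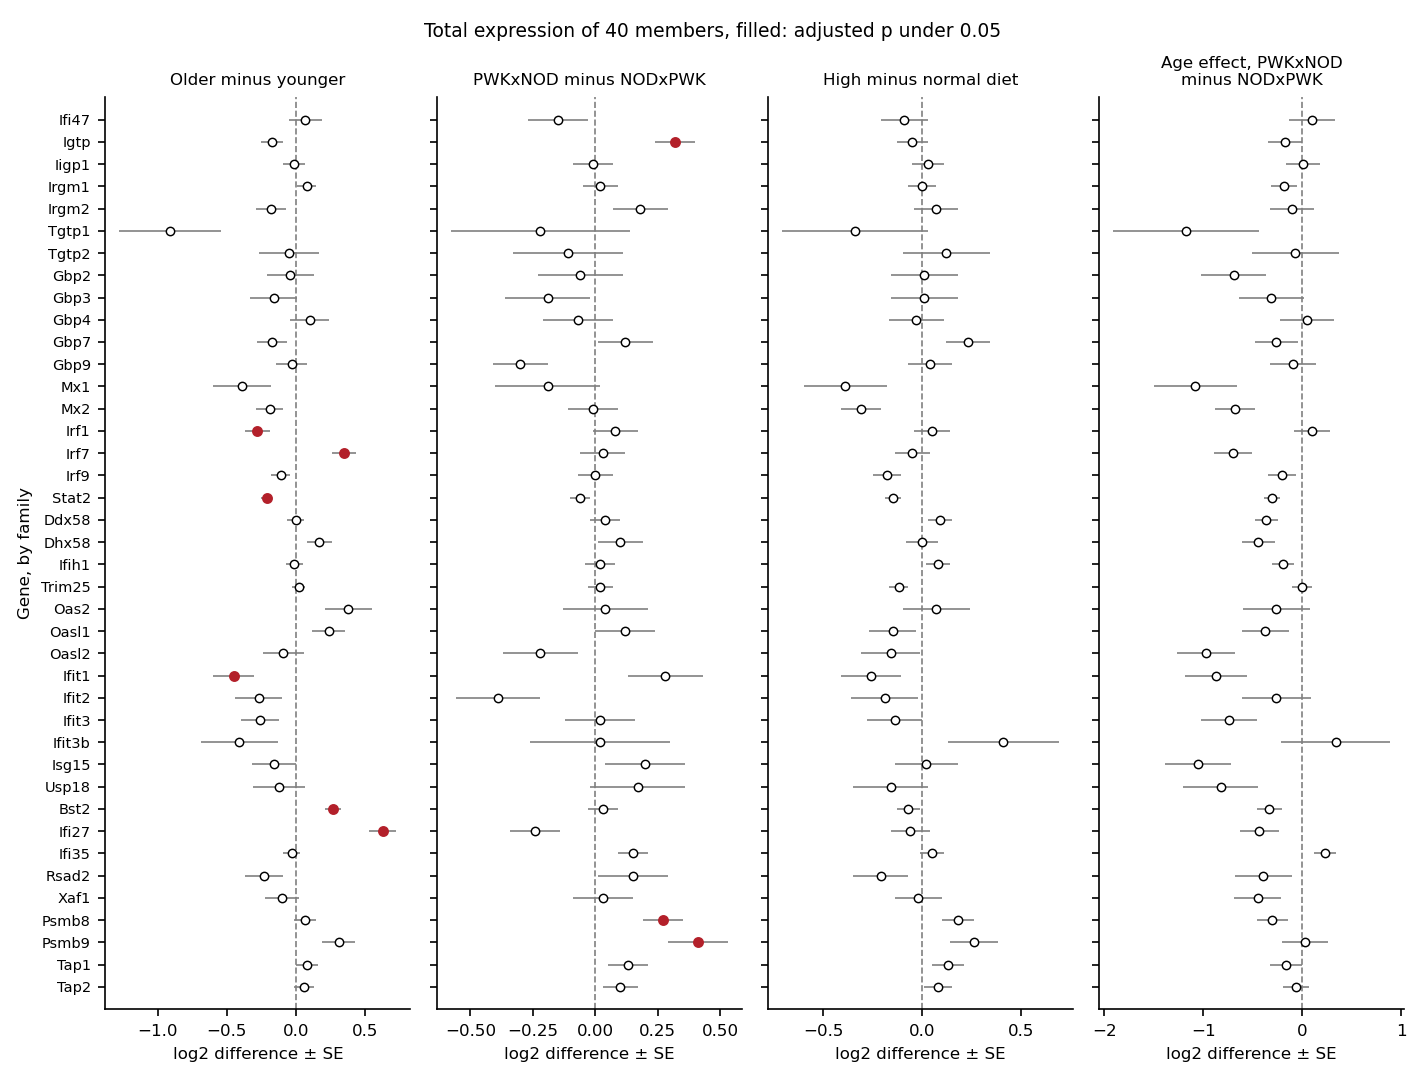
Log2 difference in total expression (x axis, with SE) for each of the 40 members by age, by cross, by diet and for the age effect in PWKxNOD minus that in NODxPWK, filled where the adjusted p is under 0.05. The filled points are 6 for age, 3 for cross and 0 for diet and for the interaction.

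No member was called for the high cholecalciferol diet (edgeR, 0 of 40, against 0.342% of all genes). At an unadjusted p of 0.05, 7 members differed (11% of all genes), and DESeq2 called 0. Stat2 came nearest, 0.15 lower on the log2 scale (-0.15 ± 0.04, adjusted p = 0.0889), and with the GC score as a covariate it was called (adjusted p = 0.037). Mx2 had a median of 14.9 CPM on the high and 19.2 CPM on the normal diet (-0.31 ± 0.10, adjusted p = 0.138). Within the older mice 0 of 40 were called, against 3.71% of all genes, with 6 at an unadjusted p under 0.05 (16.7% of genes) and 0 by DESeq2. With the covariate the count was 2 (Tap2 and Psmb9), and the share of all genes called in that fit was not counted. Within the younger mice the edgeR count was 0 for members and for all genes (0.0%), with 2 members at an unadjusted p under 0.05 (4.78% of genes) and 0 by DESeq2. The diet effect was not called as different between ages in any member (0 of 40, against 0.618% of genes, with 2 at an unadjusted p under 0.05, against 12% of genes, and 0 by DESeq2). Between crosses the count was also 0 of 40, against 0.125% of genes, with 5 at an unadjusted p under 0.05, against 13.9% of genes, and 0 by DESeq2. In the last comparison Oasl2 had the largest difference, 0.96 ± 0.29 (adjusted p = 0.17).

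No member was called for a difference in the age effect between the crosses. Of the 40 members 0 passed in edgeR or in DESeq2, against 0.0501% of all genes, while 15 (37.5%) had an unadjusted p under 0.05, against 8.9% of genes. Of the 15, 14 were lower, a direction that 4.53% of all genes took at that threshold. Members vary together from mouse to mouse, so these 15 are not separate observations. The median interaction was -0.28 for members and 0.00 for all genes, and it was above 0 in 8 of 40 members and in 50.7% of genes. Leading members were Irf7 (-0.70 ± 0.19, adjusted p = 0.145), Stat2 (-0.30 ± 0.08, adjusted p = 0.167), Mx2 (-0.68 ± 0.20, adjusted p = 0.182), Oasl2 (-0.97 ± 0.29, adjusted p = 0.204) and Isg15 (-1.05 ± 0.33, adjusted p = 0.212). With the GC score as a covariate the smallest adjusted p was 0.057.

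**Figure D4:**
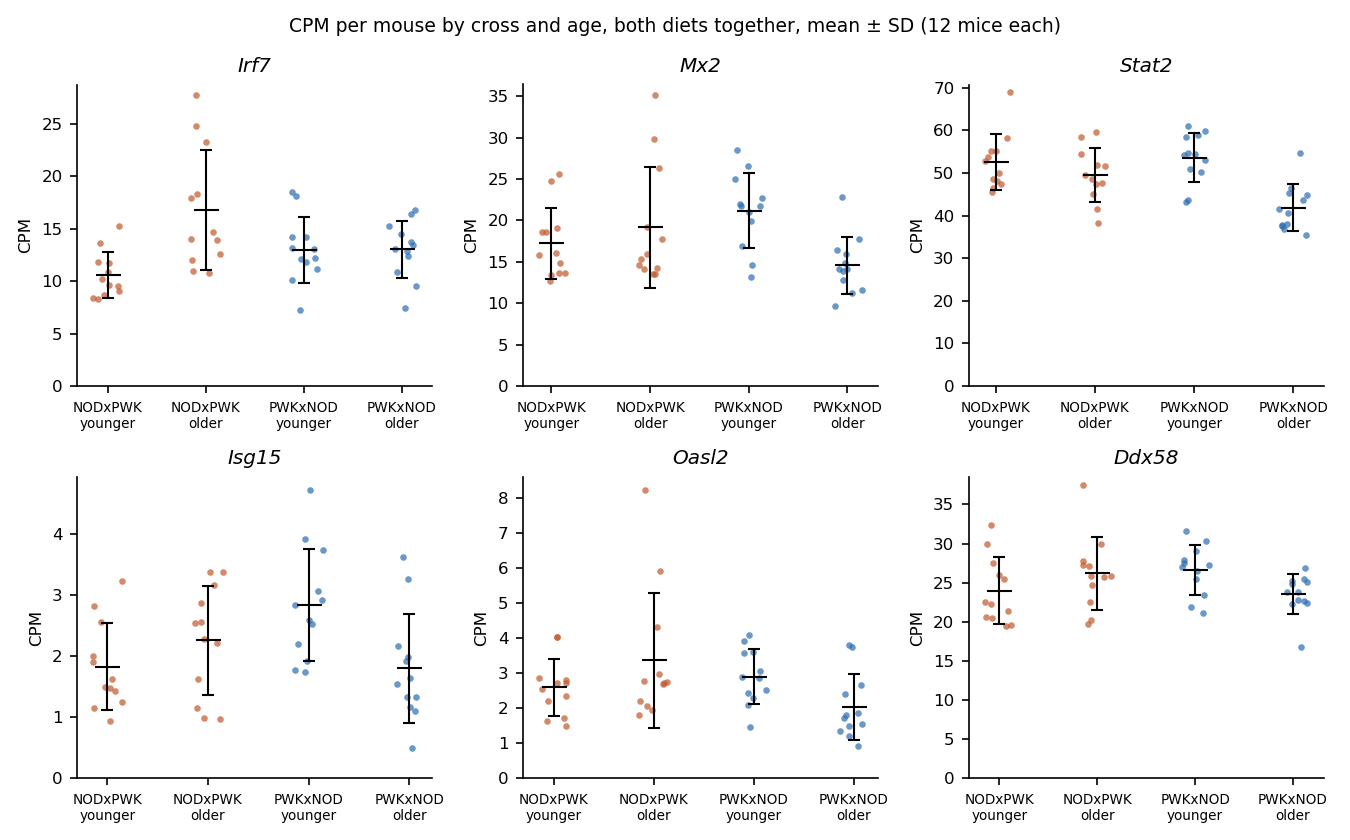
CPM (y axis) of Irf7, Mx2, Stat2, Isg15, Oasl2 and Ddx58, with 1 point per mouse and the mean and SD of 12 mice by cross and age. Irf7 averages 10.6 and 16.7 CPM in younger and older NODxPWK mice and 13 CPM at both ages in PWKxNOD mice. For Irf7 the older NODxPWK points spread most.

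The mean level of Irf7 was 10.6 ± 2.17 CPM in younger and 16.7 ± 5.72 CPM in older NODxPWK mice (SD, n = 12 each), and 13 ± 3.13 and 13 ± 2.71 CPM in PWKxNOD mice. For Mx2 the means were 17.2 and 19.2 CPM in NODxPWK and 21.2 and 14.6 CPM in PWKxNOD, and for Stat2 they were 52.5 and 49.5 CPM against 53.6 and 41.9 CPM. A few animals carried much of the older NODxPWK values. Among its 6 mice on the normal diet, Irf7 stood at 27.7, 24.8 and 23.3 CPM in 3 mice and at 11, 13.9 and 17.9 CPM in the others. The 3 high mice and 2 of the 3 low ones were labelled 25, so the label does not separate high from low mice. The same 3 mice, picked here by Irf7, were the highest of the 6 in Mx2 (29.8, 35.1 and 26.4 CPM, against 13.6 to 19.3 CPM) and in Oasl2 (4.31, 8.25 and 5.92 CPM, against 1.94 to 2.77 CPM). In all, they were the highest 3 in 16 of the 43 matched members, Irf7 included: the others were Irf9, Ifih1, Isg15, Irgm1, Igtp, Ifit1, Ifit2, Ifit3, Oasl1, Xaf1, Gbp3, Gbp9 and Ifi44. In the other 27 members they were not, with 2 of the 3 among the highest in 23 (Stat2 among them) and 1 in Irf1, Tap2, Gbp2 and Gbp7. The share of all genes with the same highest 3 mice was not counted, so 16 of 43 only describes these mice. Without the mice labelled 25, which leaves in that group the mouse lowest of the 6 in Irf7, Mx2, Oasl2 and Isg15, Irf7 gave an interaction of -0.19 (adjusted p = 0.91), Mx2 -0.23, Isg15 -0.30 and Oasl2 -0.32, while Stat2 gave -0.23 and Ifit1 -0.73.

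The members varied together from mouse to mouse within groups. Over the 325 pairs of the 26 members tested for alleles, the median Pearson correlation of deviations from group means was 0.21, with 81.8% of pairs above 0. Over the 9362 genes it was 0.04 with 56.4% above 0. The same mice and libraries enter every pair. With the GC score removed from each gene the values were 0.25 and 91.4% for members and 0.05 and 60.1% for all genes. In two-sided tests with 100000 permutations within groups, 57 pairs passed at an adjusted p of 0.05 for both Pearson's r and Spearman's rho. Of these, 54 were positive. With the GC score removed 47 pairs passed, all positive, and 39 passed both ways. The share of all gene pairs that would pass these tests was not counted. Pairs with r above 0.5 made up 7.38% for members and 5.42% for all genes. With the GC score removed the values were 7.38% and 0.57%.

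**Figure D5:**
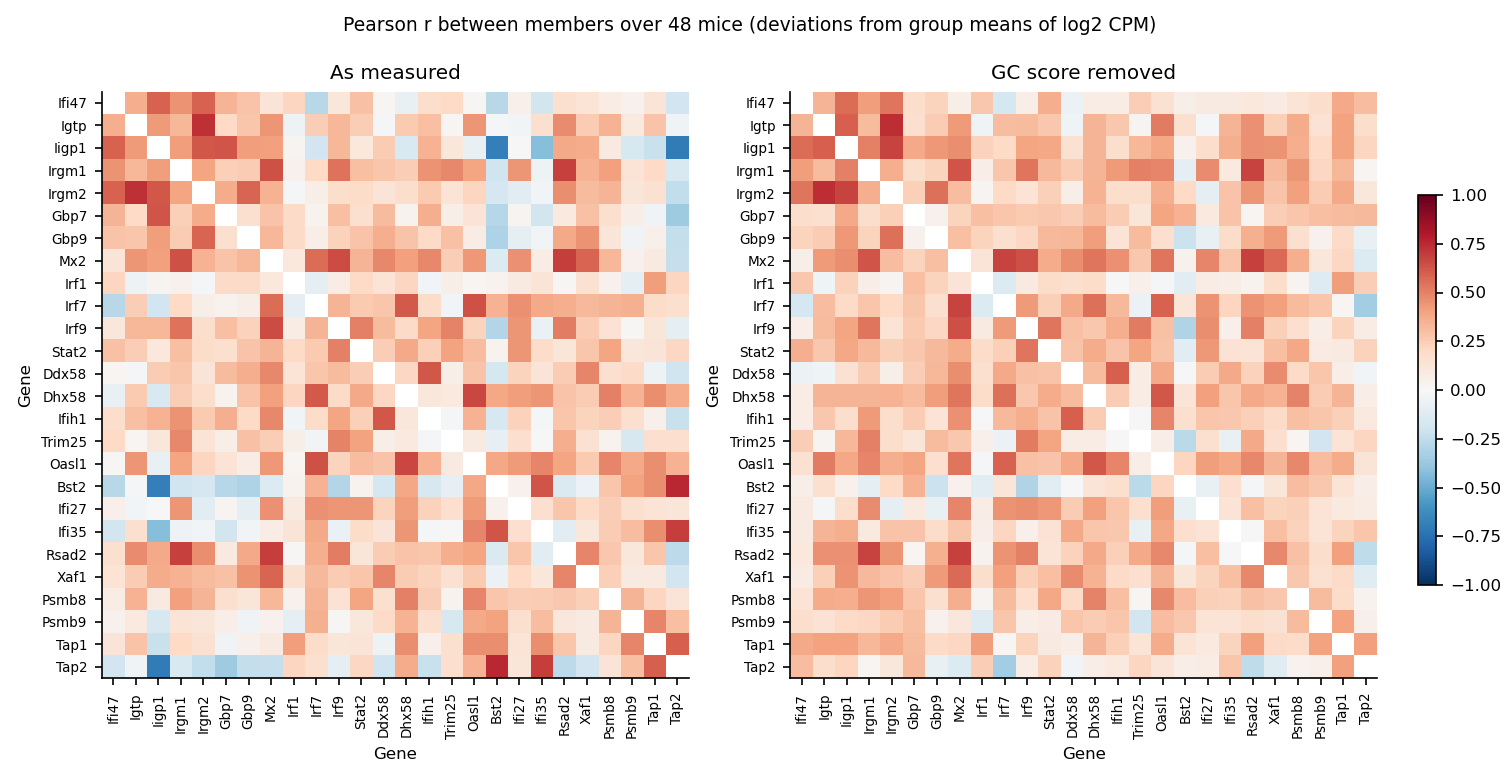
Pearson correlation (colour, from -1 in blue to 1 in red) between pairs of members over 48 mice, as deviations from group means, before (left) and after (right) removal of the GC score. Genes on both axes are ordered by family. Irgm2 and Igtp stay at 0.732 and 0.737, while Bst2 and Tap2 go from 0.755 to 0.064.

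Several pairs within families or pathways were nearly the same with and without the GC score. Irgm2 and Igtp, which share exon sequence, had r = 0.732 (rho 0.731) and 0.737 with the score removed. Iigp1 went with Irgm2 at 0.622 (0.673 with the score removed), so the NOD-leaning effector and the PWK-leaning regulator rose and fell in the same mice. Rsad2 and Mx2 had r = 0.694 (0.685), Irf9 and Mx2 0.653 (0.643), Oasl1 and Dhx58 0.665 (0.618), and the 2 RNA sensors Ifih1 and Ddx58 0.621 (0.597). Without the 2 mice farthest from the median of the first gene these 6 coefficients, with the score left in, ran from 0.511 (Ifih1 and Ddx58) to 0.663 (Oasl1 and Dhx58). The 6 pairs passed both adjusted tests with and without the score. Other pairs followed the GC score. Bst2 and Tap2 fell from 0.755 to 0.064, Iigp1 and Bst2 went from -0.686 to 0.044, and Iigp1 and Tap2 went from -0.698 to 0.216. The score itself correlated with Tap2 at r = 0.891, with Bst2 at 0.830 and with Ifi35 at 0.672, whose transcripts hold 56.9, 55.3 and 54.1% GC. It correlated at -0.843 with Iigp1 and -0.540 with Gbp7, which hold 39.3 and 41.7%. The adjusted p was at most 0.041 in these 5, which are the members that passed among the 26, and without the 2 farthest mice r was 0.871, 0.809, 0.614, -0.826 and -0.542. Of the 156 correlations of members with summed markers of 4 cell types or tissues, with haemoglobin transcripts or with the log2 total count, 0 passed. The smallest adjusted p was 0.13 for Pearson's r and 0.076 for Spearman's rho, the latter for Xaf1 with Kupffer cell markers.

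The wider pathway was read in 3 lists. Of 29 ligands, receptors and signalling genes, 9 interferon genes (Ifna1, Ifna2, Ifna4, Ifnb1, Ifng, Ifnk, Ifne, Ifnl2 and Ifnl3) stayed below 0.1 CPM, so the ligands themselves were near absent from these libraries. Of 17 tested, 6 had unequal alleles, 5 toward NOD, against 43.6% of all genes. Irf5, a factor downstream of Toll-like receptors, had 9.71% PWK (log2 ratio -3.90 ± 0.35, adjusted p = 5.45e-13), the receptor subunit Ifnar1 43.3% (-0.38 ± 0.06) and the kinase Jak1 53.0% (0.18 ± 0.04). With age 2 of 18 fell (12% of all genes changed with age), Irf2 (-0.20 ± 0.05) and Stat3 (-0.25 ± 0.07), and 0 rose.

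Among nucleic acid sensing genes, 4 of 11 had unequal alleles (43.6% of all genes), led by Traf3 (38.9% PWK), the adaptor Mavs (45.9%) and the kinase Ikbke (53.7%). With age 4 of 14 changed (12% of all genes), among them Mavs, the adaptor of RIG-I and MDA5, which fell (-0.14 ± 0.04), and Traf3, which rose (0.22 ± 0.06). By cross 2 of 14 differed (10.7% of all genes): Ikbke and the Z-nucleic acid sensor Zbp1 were higher in PWKxNOD (0.17 ± 0.06 and 0.48 ± 0.16). Of 34 other interferon-induced genes, 12 (35.3%) had unequal alleles, against 43.6% of all genes, 5 toward PWK and 7 toward NOD. Lgals3bp had 85.7% PWK (log2 ratio 2.58 ± 0.05, adjusted p = 1.69e-37), Parp14 63.5% and the membrane protein Ifitm3 57.2%. For total expression 2 of 44 changed with age (12% of all genes), Ube2l6, the conjugating enzyme for ISG15, which rose (0.24 ± 0.05), and Trafd1, which fell (-0.16 ± 0.05). By cross, 5 of 44 differed (10.7% of all genes), led by Dtx3l (0.24 ± 0.06), Lgals9 (-0.17 ± 0.04) and Gbp11 (0.97 ± 0.27). Irgq was lower on the high diet in older mice (-0.28 ± 0.08), the only one of the 44 called there (3.71% of all genes). The interaction of age with cross was called in 0 genes of these lists, and its median was 0.00, -0.07 and -0.11 in the 3 lists in this order.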

How the data were processed

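The authors deposited expected counts (estimates that may hold fractions of a read) in separate tables for the NOD and the PWK allele, with 1 column per mouse and 0 unmapped columns. The columns are named as EMASE output. The submitters' processing notes name the tools CASAVA (1.7.0) and Bowtie (1.1.2), with GRCm38 and mm10 as genome builds. Not given in the sources used here are the version of EMASE, its annotation and how the 2 runs per mouse were joined. Symbols and coordinates come from GENCODE M21 (GRCm38), which matched 37607 of the 38924 identifiers, and the other 1317 held 0.159% of counts. The members and lists were chosen with earlier results of these data known.

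Totals were the rounded sum of both tables. With edgeR 4.0.16 (R 4.3.3), genes kept by filterByExpr (11979) were scaled by TMM and fitted with 8 group means and a robust quasi-likelihood test. For alleles, autosomal genes with a mean of at least 20 counts (9362) were fitted with the NOD and PWK counts as 2 columns and the mouse as a fixed effect. P-values were Benjamini-Hochberg adjusted over all genes, with a threshold of 0.05. DESeq2 1.42.0 and limma 3.58.1 served as alternatives. CPM values were scaled to each mouse's total counts, and correlations used log2(CPM + 0.5). The GC score was added after seeing the data, as were the runs without pancreas transcripts or the shallowest barcode. Simulated data with known changes were recovered for age at 48% for 1.25-fold and 94% for 1.5-fold, and for alleles at 96% for 1.25-fold. Recovery was not tested for diet, for cross or for any interaction. Nor was it tested separately for members whose shares scatter widely over mice, such as Tap1 and Rsad2 (SD 23.3% and 26.1%). The 96% need not hold for such members. All members are accounted for: those called are named with values, and of the other lists up to 3 genes per comparison, by smallest p. The replicate number is a sequencing lane set shared by the 8 groups. Over 168 pairs of same-numbered mice the mean correlation of deviations was -0.0044, with 24 above 0.1, so the numbers do not pair the mice.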

Additional observations from a re-analysis of the deposited data

Results flagged for a closer look

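In 6 of 176 sets of 6 mice (3.41%), 1 mouse stood apart from the others by a Dixon test at the 95% level, which chance does in about 1 set in 20. Of these, 3 were levels. Igtp reached 32.4 CPM in 1 older PWKxNOD mouse on the normal diet (others 17.5 to 22.8 CPM), and Ifit1 reached 5.44 CPM in 1 mouse of the same group (others 1.44 to 2.76 CPM). Irf7 reached 11.7 CPM in 1 younger NODxPWK mouse on the normal diet (others 8.43 to 9.65 CPM). The other 3 were PWK shares. Gbp9 was at 46.1% in 1 younger PWKxNOD mouse on the high diet (others 67.8 to 79.8%). Ifih1 was at 43.2% in 1 older NODxPWK mouse on the normal diet (others 58.2 to 64.7%). Mx2 was at 63.3% in 1 older NODxPWK mouse on the high diet (others 81.6 to 90.7%).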

How the results depend on the processing

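Leaving out each replicate number in turn gave 12 to 13 members with unequal alleles, 4 to 6 changed with age, 1 to 3 by cross, and 0 to 1 for diet by cross, with 0 in the other comparisons. The count by cross was 1 without replicate 5, and diet by cross was 1 without replicate 2. Without the mice labelled 25, which leaves 1 group with 1 mouse, the counts were 1 by cross and 1 for allele ratio by age. With the GC score as a covariate they were 1 for diet, 5 by cross and 2 for diet in older mice, with no share of all genes counted. With the replicate number as a block, 6 members were called for age, 3 by cross and 14 for alleles (limma, 14 without the block), and no other count moved from 0. Ratios near 0 changed sign: Dhx58 0.01 with each allele scaled by its own total, Dhx58 0.08 and Irf1 -0.10 without mice with pancreas transcripts, and Ddx58 0.06, Dhx58 0.01, Rsad2 0.04 and Tap1 -0.02 without the shallowest barcode. Without the mice labelled 25, Dhx58 was 0.00, Gbp9 -0.05, Irf1 -0.01 and Rsad2 0.25. Over the left-out replicates Irf1 ran from -0.02 to 0.08, Dhx58 from -0.13 to 0.15, Rsad2 from -0.14 to 0.06 and Psmb9 from -0.25 to 0.04. The cause was not tested. Depth limits the 17 members below 20 counts.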
